A study of Mus musculus with 4 samples.

Results

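Olfr15 neurons are the olfactory sensory neurons (OSNs) of the mouse nose whose odorant receptor transcripts came almost entirely from the gene Olfr15. They were picked by their own receptor counts. A barcode counted as an OSN with at least 500 detected genes, at most 10% mitochondrial UMIs, at least 5 UMIs of Omp (olfactory marker protein, made by mature OSNs) and at most 15 UMIs of Cyp2g1 (an enzyme of the supporting cells). A UMI (unique molecular identifier) stands for 1 captured RNA molecule. An OSN was assigned to its most abundant receptor when that gene reached 3 UMIs and made up 80% or more of all receptor UMIs there. The rule gave 122 Olfr15 neurons among 17891 assigned neurons and 41911 cell barcodes. The comparison group was the 17769 neurons assigned in the same way to any other receptor.

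The libraries are single-cell RNA libraries of papain-dissociated main olfactory epithelium, 2 labelled female and 2 labelled male. The animals were C57BL/6J mice, of wild type genotype and an age of 3 months, and the labels name no treatment. Nothing in the labels says whether a library holds 1 animal, so p-values measure the spread between these 4 libraries. The series title concerns neurexins and the targeting of olfactory axons, and the labels put the libraries into no groups other than the sexes. Total depth ran from 100725429 to 111577458 UMIs per library over 10256 to 10777 barcodes, and 84.8% to 86.9% of the OSNs could be assigned.

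A mature OSN transcribes a single receptor gene out of a large family, and the axons of OSNs that share a receptor meet in the same glomeruli of the olfactory bulb. The receptor is linked to the guidance and adhesion molecules on the axon. Cyclic AMP made downstream of the receptor sets the level of the semaphorin receptor Nrp1, which goes with glomerular position along the anterior-posterior axis. Odour-driven activity is linked to the levels of the adhesion proteins Kirrel2 and Kirrel3, which sort axons locally, and of the calcium-binding protein S100a5. The direction of that link is not the same for all of them.

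Olfr15 (ENSMUSG00000059043) is annotated on chromosome 16 from 3830878 to 3844747, plus strand, in GENCODE M21 on GRCm38. Its spliced transcripts have 2 exons, and the 939 coding bases, stop codon included, lie in the last exon between 3838975 and 3839913. The nearest other annotated protein-coding receptor gene, Olfr161, is 232 kb away, and it is the only one within 500 kb. By name Olfr15 belongs to the MOR256 family of class II receptors, as does Olfr124, which had 64 assigned neurons. Over 1092 other receptors with a complete coding sequence, the closest to Olfr15 by global alignment with the fewest edits was Olfr90 with 68.5% identical positions, where the median receptor had 60.2%. Olfr124 had 66.4% and came 12th. The lines below show how far apart the coding sequences of these relatives are, in 90 bases around the codons at the inner end of the third membrane span, a stretch conserved among odorant receptors. In Olfr15 capitals mark the 30 bases of that conserved stretch, and in the relatives they mark bases unlike Olfr15.
Olfr15, chr16:3839296-3839385, plus strand: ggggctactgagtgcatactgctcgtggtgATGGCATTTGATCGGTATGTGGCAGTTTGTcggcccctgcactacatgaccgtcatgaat
Olfr90, chr17:37085759-37085848, minus strand: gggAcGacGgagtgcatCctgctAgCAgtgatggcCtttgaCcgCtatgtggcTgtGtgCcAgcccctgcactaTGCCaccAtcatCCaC
Olfr124, chr17:37805468-37805557, plus strand: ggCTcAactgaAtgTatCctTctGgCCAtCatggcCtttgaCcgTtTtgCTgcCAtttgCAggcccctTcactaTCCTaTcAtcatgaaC

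In these 90 bases 22 differed from Olfr15 in Olfr90 and 30 in Olfr124, of which 6 and 9 fell in the conserved stretch. The longest exact run that the Olfr15 coding sequence shared with any other receptor was 31 bases, in Olfr52. The libraries read the start of transcripts, so many reads fall before the coding sequence, where sharing was not measured.

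In the 122 members the rule itself fixed Olfr15 as the leading receptor, and the level above that minimum was a median of 46 Olfr15 UMIs, from 4 to 106. Medians were 50, 43.5, 46 and 45.5 UMIs in female 1, female 2, male 1 and male 2, close to each other. No other receptor UMI was found in 24 members, a second receptor with 1 UMI in 82, and one with 2 or more in 16, at most 8. These second receptors were 82 different genes, and no more than 3 members shared one. Olfr15 UMIs were higher in deeper barcodes (Pearson r 0.82 over the 122 members, a description in which both measures share the capture of the same cell).

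**Figure D1:**
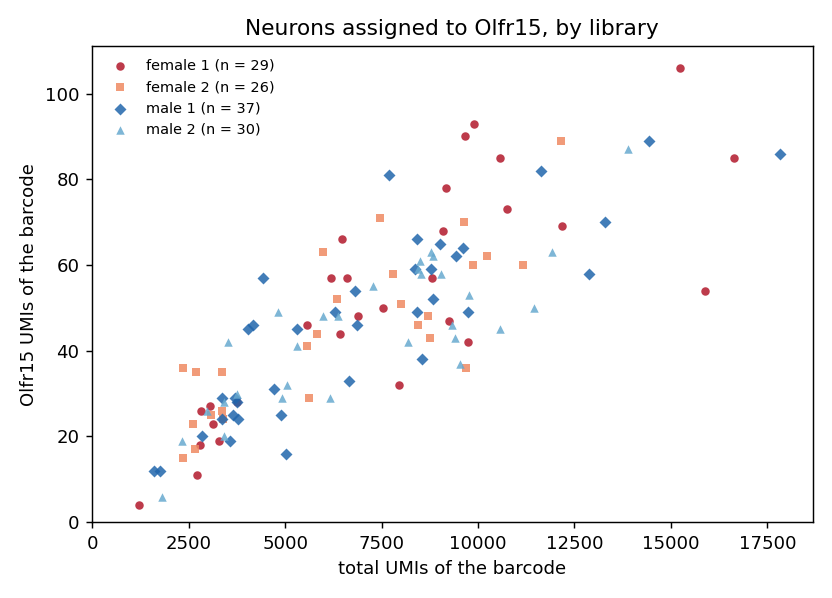
Olfr15 UMIs (vertical axis) against total UMIs (horizontal axis) of each of the 122 Olfr15 neurons, with a colour and symbol for each library. Deeper barcodes held more Olfr15 UMIs, up to 106, and the 4 libraries lie over each other.

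Of 8102 Olfr15 UMIs in barcodes that passed the gene and mitochondrial limits, 5689 (70.2%) were in members. The members nearest the limits had 4, 6 and 11 Olfr15 UMIs, and Olfr15 shares of 80.6%, 81.2% and 82.8% of receptor UMIs. Just outside, the highest shares were 75%, and 12 barcodes led by Olfr15 were left out for their share. Another 11 with over 15 Cyp2g1 UMIs were led by Olfr15, with a median of 42 Olfr15 UMIs. A further 20 barcodes with at least 3 Olfr15 UMIs had too little Omp. In 12 of these Gap43, a growth-cone protein of immature OSNs, was over 2 UMIs, with a median of 29, and their median of 46 Olfr15 UMIs equalled that of the members. Outside the assigned class, 1.66% of 9192 barcodes with over 15 Cyp2g1 UMIs (95% exact interval 1.41% to 1.95%, median depth 15486 UMIs) held an Olfr15 UMI, the 11 led by Olfr15 included. Among neurons of other receptors it was 0.850% (0.720% to 0.996%, median depth 8188 UMIs), which is the background of Olfr15 UMIs in neurons assigned to another receptor.

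The label was checked against marker genes. Omp among the mature OSN markers and Cyp2g1 among the supporting cell markers were limits of the rule, so that part of this check was fixed by it. Of 8 mature OSN markers Stoml3 was higher and Rtp1 lower than in other neurons. Of all genes tested in the main comparison below, 0.949% were higher and 1.69% lower. The summed level of the 8 was 31659 to 39387 CPM in Olfr15 neurons against 28736 to 30358 CPM in the others. Most of that gap was Stoml3: the mean sums were 35052.5 and 29382 CPM, and Stoml3 alone had 15023 and 9809 CPM. CPM are counts per 1000000 UMIs of genes other than receptors in a sum. None of 6 immature markers passed the test, and the share of members with over 2 Gap43 UMIs was 10.3%, 3.85%, 5.41% and 20.0% in the library order above, against 9.11%, 8.22%, 7.27% and 8.09% in other neurons. Male 2 was high and female 2 low in that share. The median member held 2 UMIs of markers of other cell types (supporting, basal, glial, immune, microvillar and red cells). Over 20 such UMIs were found in 2 members, against 2.61% of other neurons. One of them, in female 1, held 266 with 5 Omp UMIs and 15870 UMIs in all. Both gene comparisons by sex are given with and without these 2, the interaction also without the other neurons over that limit. Likely doublets made up 5.74% of members (7 barcodes) and 5.32% of other neurons. Barcode sequences recurred across libraries 895 times, 132 times among assigned neurons and 0 times among members.

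Olfr15 was the 10th most frequent of 960 receptors with an assigned neuron. It was chosen by 29 of 4532 assigned neurons in female 1 (0.640%, 95% exact interval 0.429% to 0.918%), 26 of 4318 in female 2 (0.602%, 0.394% to 0.881%), 37 of 4440 in male 1 (0.833%, 0.587% to 1.15%) and 30 of 4601 in male 2 (0.652%, 0.440% to 0.930%). All 4 intervals overlapped. The mean share was 0.743% ± 0.128 (SD, n = 2) in males and 0.621% ± 0.0267 (SD, n = 2) in females, with an exact two-sided permutation p of 0.33, the smallest that 2 against 2 libraries can give. By edgeR's quasi-likelihood test over 260 receptors with at least 20 neurons, the log2 ratio of male to female neurons was 0.25 (SE 0.23, adjusted p 0.861). No receptor (0%) passed at an adjusted p under 0.05, and 21 had an unadjusted p under 0.05.

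Olfr15 neurons were shallow. Their median total was 7533, 6170, 6662 and 7733 UMIs, against 8585, 8286, 8086 and 7767 in other neurons of the same library. The values were lower in each library and did not overlap those of the others, though male 2 came close. Receptor UMIs made up 67.3, 69.3, 65.9 and 62.3 per 10000 UMIs in Olfr15 neurons and 94.8, 89.3, 93.8 and 88.4 in the others, with no overlap. Median Omp was 53, 62.5, 54 and 53 UMIs against 73, 74, 70 and 71, also with no overlap, while per UMI Omp did not pass the test (log2 fold change -0.15, SE 0.07, edgeR adjusted p 0.383). These values lie partly within the rule and are a description.

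Among 69 receptors with at least 10 assigned neurons in each library, Olfr15 ranked 67th in median total UMIs (6841.5) and 67th in median Omp UMIs (54.5). Over the other 68 receptors the median of these medians was 8654 UMIs, from 6623 to 11079, and 77.5 Omp UMIs, from 43.5 to 101. Olfr124, the other MOR256 receptor of the set, ranked 68th in depth (6751 UMIs) and 66th in Omp (55 UMIs). Receptors of other MOR families lay close by. Olfr449 had medians of 6623 UMIs and 59.5 Omp UMIs, Olfr31 of 6889 and 58, and Olfr330 of 6907.5 and 43.5. Fewer RNA molecules in the cell and weaker capture of the cell cannot be told apart from UMI totals.

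**Figure D2:**
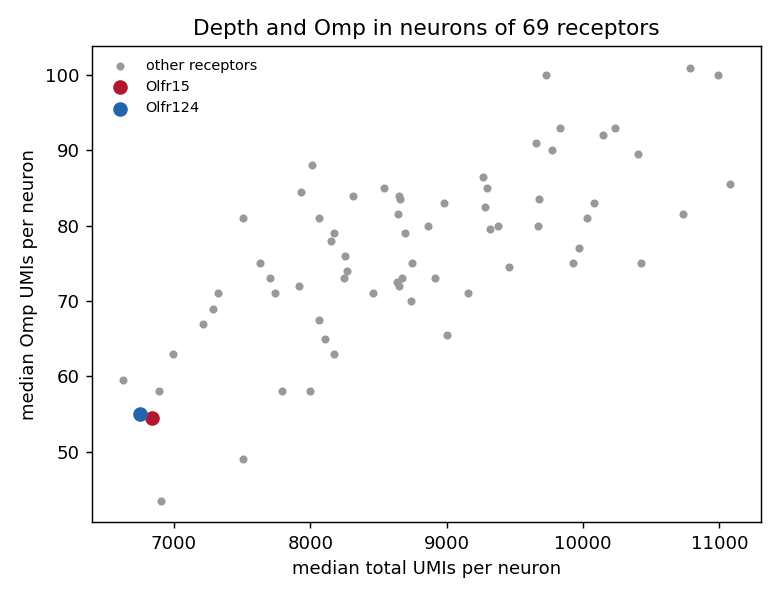
Median Omp UMIs per neuron (vertical axis) against median total UMIs per neuron (horizontal axis), 1 point for each of 69 receptors, with Olfr15 in red and Olfr124 in blue. The MOR256 pair sits side by side in the lower left corner, at 54.5 and 55 Omp UMIs. Receptors of other families, such as Olfr449, Olfr31 and Olfr330, lie in that corner too.

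The main comparison asked which genes other than receptors had other levels in Olfr15 neurons than in neurons of other receptors. Counts were summed per library, 165944 to 255692 UMIs in the Olfr15 sums and 35929020 to 39342113 in the other sums, and tested with the library as a block. Of 10007 genes 264 (2.64%) passed the quasi-likelihood test of edgeR at a Benjamini-Hochberg adjusted p under 0.05, 95 higher (0.949%) and 169 lower (1.69%) in Olfr15 neurons. In 1417 genes (14.2%) the 4 Olfr15 values and the 4 other values did not overlap, among them 221 of the 264. Without TMM scaling 139 were higher and 146 lower. The count fell to 128 without male 1 and to 167 without male 2. With barcodes of at least 5000 UMIs alone it was 178, 57 higher and 121 lower. In another alternative the comparison group was the other 68 receptors with at least 10 neurons in each library, each with the same weight, and the neurons of all other receptors were left out. Here 181 genes passed, 134 higher and 47 lower. The levels of these 68 were averaged on the log scale and not as pooled counts. The fit also used a common negative binomial dispersion for all genes. Which of these changes moved a value was not tested, and all are meant below where equal weight of receptors is named. The same comparison made for the other 68 receptors called between 34 and 2006 genes, with a median of 203.5, and Olfr15 ranked 26th of 69. These receptors had 44 to 320 neurons, with a median of 77, where Olfr15 had 122. The counts were not adjusted for the number of neurons summed.

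The gene with the clearest rise among axon guidance receptors was Nrp1 (ENSMUSG00000025810, chromosome 8, 128358604 to 128503363), the receptor for class 3 semaphorins. Nrp1 had 225, 163, 176 and 245 CPM in Olfr15 neurons of female 1, female 2, male 1 and male 2, and 47.1, 44.1, 47.1 and 42.6 CPM in the other neurons. Every Olfr15 value lay far above every other value. The log2 fold change was 2.12 (SE 0.16, edgeR adjusted p 8.92e-11). Plxna1, a plexin that carries the semaphorin signal into the cell, fell, with 27.6 ± 15.7 CPM (SD, n = 4), from 18.1 CPM or less in both females to 50.8 CPM in male 1, against 93.4, 92.5, 87.0 and 93.0 CPM (log2 fold change -1.69, SE 0.26, edgeR adjusted p 5.72e-05). Plxna3, another plexin of that class, rose, with 226 ± 44.3 CPM (SD, n = 4) against 136 ± 3.37 CPM (log2 fold change 0.69, SE 0.13, edgeR adjusted p 0.00104), a call lost without male 1. Of 9 tested guidance receptors 2 rose, 1 fell and 6 did not pass, Robo2 (log2 fold change -0.56) and Nrp2 (0.41) among them. The median of the list was 0.06, where all genes tested had -0.01 and 2.64% of them passed.

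Of 9 tested guidance ligands Sema6c, a transmembrane semaphorin, passed, with 36.1, 90.4, 74.3 and 66.1 CPM against 19.6 ± 1.18 CPM (SD, n = 4). The lowest Olfr15 value, in female 1, was still above all others. The log2 fold change was 1.70 (SE 0.25, edgeR adjusted p 4.48e-05). The other 8 ligands did not pass, and 2.64% of all genes tested did. Sema3a, a ligand of Nrp1, was rare in both groups, with 1 UMI in Olfr15 neurons, in male 2, and 8.90 ± 0.633 CPM (SD, n = 4) in the others, and did not pass (edgeR adjusted p 0.182).

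Among adhesion proteins of axon sorting, Pcdh7 and Kirrel3 rose and Pcdh17 and Kirrel2 fell, while 6 of 10 tested did not pass. Over all genes tested the share that passed was 2.64%. Pcdh7 (ENSMUSG00000029108, chromosome 5, 57717967 to 58133230), a protocadherin outside the clusters, had 352, 253, 325 and 279 CPM in Olfr15 neurons and 67.8, 71.2, 83.9 and 79.2 CPM in the others (log2 fold change 1.97, SE 0.13, edgeR adjusted p 6.02e-12). Kirrel3 (ENSMUSG00000032036, chromosome 9, 34485894 to 35036716), which binds itself across cells, had 271, 283, 199 and 260 CPM against 98.2, 97.3, 89.5 and 95.9 CPM (log2 fold change 1.36, SE 0.13, edgeR adjusted p 9.49e-09). Neither group of values overlapped the other. Kirrel2 had 857, 928, 857 and 689 CPM against 1171, 1054, 1095 and 869 CPM. It was lower in each library, but the groups overlapped (log2 fold change -0.37, SE 0.08, edgeR adjusted p 0.00593), and the call was lost without female 1, without male 1, without the library block and with equal weight of receptors. Pcdh17 had 36.2 ± 17.0 CPM (SD, n = 4) against 84.8 ± 6.03 CPM (log2 fold change -1.27, SE 0.24, edgeR adjusted p 0.00112), a call lost with equal weight of receptors.

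Ncam1, Ncam2 and Cntn4 of the same list had log2 fold changes of 0.25, 0.40 and 0.26 and did not pass. Of 14 tested synaptic organizers the teneurins Tenm2 and Tenm4, transmembrane proteins that bind latrophilins, fell. Tenm4 had 22.6, 18.1, 3.91 and 9.44 CPM in Olfr15 neurons and 45.1 to 46.2 CPM in the others (log2 fold change -1.86, SE 0.36, edgeR adjusted p 0.00141). Tenm2 fell by 1.15 (log2, SE 0.22, edgeR adjusted p 0.00148), and both calls were lost with equal weight of receptors. The other 12 did not pass, and the list's median was 0.28. Over all genes tested the share that fell was 1.69%. Nrxn2, a neurexin, was at 0.40 on the log2 scale and did not pass (edgeR adjusted p 0.761).

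**Figure D3:**
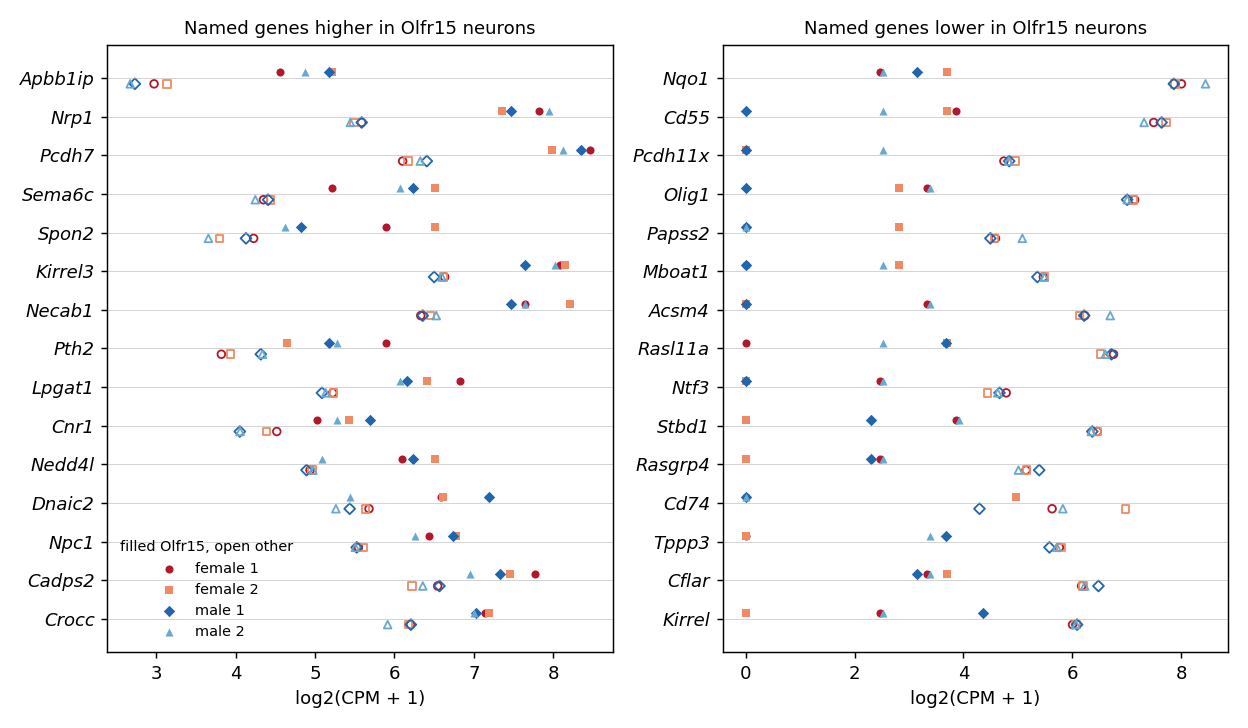
Levels as log2(CPM + 1) of the 15 named genes with the largest rise (left) and fall (right), filled symbols for Olfr15 neurons and open symbols for other neurons of the same library. In 28 of the 30 genes the 4 filled and the 4 open symbols do not overlap, the exceptions being Dnaic2 and Cd74. The genes were picked for passing the test with the same direction in all 4 libraries, so this is no separate support. Values did not overlap in 83.7% of all genes that passed and in 14.2% of all genes tested.

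The rule for named genes took the 15 largest changes in each direction among genes that passed, moved the same way in all 4 libraries and had at least 20 UMIs observed or expected. Besides Nrp1, Pcdh7, Sema6c and Kirrel3, the rises were those of genes of several kinds. Apbb1ip, an adaptor of the GTPase Rap1, had 22.5, 36.2, 35.2 and 28.3 CPM against 5.38 to 7.83 CPM (log2 fold change 2.22, SE 0.44, edgeR adjusted p 0.00233), a call lost without male 1. Necab1, a neuronal calcium-binding protein, had 198, 295, 176 and 198 CPM against 79.6 to 91.2 CPM (log2 fold change 1.29, SE 0.14, edgeR adjusted p 2.71e-07). Spon2, an extracellular matrix protein, ran from 23.6 CPM in male 2 to 90.4 CPM in female 2, and its call (log2 fold change 1.63) was lost without female 2.

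Lpgat1, a phospholipid acyltransferase, rose by 1.21 on the log2 scale, Npc1, which exports cholesterol from lysosomes, by 0.99, Cadps2, which primes dense-core vesicles, by 0.93, and Crocc, the rootletin of the ciliary rootlet, by 0.92. Npc1 had 85.7, 108, 106 and 75.5 CPM against 44.5 to 47.8 CPM. It held the highest level of all 69 receptors, as did the ubiquitin ligase Nedd4l (log2 fold change 1.10), whose call was lost without female 2, without male 1 and at 5000 or more UMIs. The peptide Pth2 (1.22), the cannabinoid receptor Cnr1 (1.14) and the dynein chain Dnaic2 (1.06) also passed, but Pth2 lost its call in 6 of 17 alternatives, Cnr1 in 7 and Dnaic2 in 2. Without male 1 none of these 3 passed.

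The largest falls were near absence. Nqo1 (ENSMUSG00000003849, chromosome 8, 107388225 to 107403206), a quinone reductase that marks OSNs of the dorsal zone, had 4.51, 12.1, 7.82 and 4.72 CPM in Olfr15 neurons and 256, 235, 232 and 348 CPM in the others. That is 6 UMIs where 229 were expected from the other neurons (log2 fold change -5.29, SE 0.26, edgeR adjusted p 1.24e-14). Acsm4, an acyl-CoA synthetase of the same zone, had 4 UMIs where 68.4 were expected (log2 fold change -4.14, SE 0.42, edgeR adjusted p 4.55e-08). Against other class II receptors alone the values were -4.60 and -3.54. With equal weight of the 68 receptors they were 0.29 and 0.38 and did not pass: none of these 68 receptors had over 100 CPM of Nqo1, the highest was 32.9 CPM, and 65 were below 20 CPM. The high Nqo1 of the comparison group was thus carried by receptors with under 10 neurons in some library. The third dorsal marker, Alcam, did not pass, and of 6 ventral markers none did, with a median log2 fold change of 0.23.

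Cd55 (ENSMUSG00000026399, chromosome 1, 130439027 to 130462744), a complement regulator on the cell surface, had 13.5, 12.1, 0 and 4.72 CPM in Olfr15 neurons against 179, 209, 198 and 158 CPM (log2 fold change -4.76, SE 0.31, edgeR adjusted p 5.10e-12). Olig1, a basic helix-loop-helix transcription factor, had 9.02, 6.03, 0 and 9.44 CPM against 140, 138, 128 and 128 CPM (log2 fold change -4.54, SE 0.34, edgeR adjusted p 8.92e-11). Stbd1, a glycogen-binding protein, had 13.5, 0, 3.91 and 14.2 CPM against 80.5 to 87.3 CPM (log2 fold change -3.40, SE 0.36, edgeR adjusted p 1.18e-07). Each group of 4 Olfr15 values stayed below the lowest other value.

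Kirrel, the third member of the Kirrel adhesion family, had 7 UMIs where 56.0 were expected (log2 fold change -3.05, SE 0.39, edgeR adjusted p 3.91e-06), and 28.6% of the 7 came from 1 barcode. Cflar, an inhibitor of caspase 8 activation, had 9.02, 12.1, 7.82 and 9.44 CPM against 70.9 to 88.2 CPM (log2 fold change -3.08). Rasl11a, a small GTPase, had 6 UMIs where 85.8 were expected, Tppp3, a tubulin-binding protein, 5 where 43.7 were expected, and Rasgrp4, an exchange factor for Ras, 3 where 30.5 were expected (10.2-fold lower, counting interval 3.48 to 49.3).

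Ntf3, the growth factor neurotrophin-3, had 2 UMIs, which was 10.3-fold lower (2.85 to 84.96), and Mboat1, an acyltransferase, had 2, which was 18.2-fold lower (5.03 to 150). Pcdh11x, a protocadherin, and Papss2, which makes the sulfate donor, had 1 UMI each, 23.5-fold (4.23 to 930) and 21.4-fold (3.83 to 844) lower. These intervals cover counting error only. Mboat1, Pcdh11x and Papss2 had 2.69, 1.18 and 1.51 CPM in Olfr15 neurons. Their medians over the other 68 receptors were 2.21, 1.27 and 4.93 CPM. Below 20 CPM were 54, 60 and 67 of the 68, and 31, 36 and 64 lay above Olfr15. Levels below 20 CPM of these 3 genes were thus not particular to Olfr15 neurons. Ntf3, Rasgrp4, Tppp3 and Cd74 were below 20 CPM in 39, 37, 34 and 41 of the 68. Cd74, the invariant chain of MHC class II, had 5 UMIs where 48.0 were expected, all in female 2 and 80% of them in 1 barcode, and its groups overlapped. With equal weight of receptors the calls of Cd55, Kirrel, Mboat1, Papss2, Pcdh11x, Rasgrp4, Tppp3 and Cd74 were lost. Of the 30 named genes 14 passed in every alternative, among them Nrp1, Pcdh7, Sema6c, Kirrel3, Necab1, Olig1, Stbd1 and Cflar.

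The same genes were then read across the 69 receptors, as a description. Nrp1 in Olfr15 neurons (202 ± 39.4 CPM, SD, n = 4) was exceeded by Olfr309 alone (240 CPM), where the median of the other 68 receptors was 41.6 CPM. Pcdh7 (302 CPM) was exceeded by Olfr309, Olfr211 and Olfr449, with a median of 20.7 CPM, and 34 of the 68 had under 20 CPM. Kirrel3 (253 CPM) was exceeded by Olfr1110, Olfr1507 and Olfr195, with a median of 57.6 CPM.

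At the low end, Ntf3 and Stbd1 were lower in 1 of the 68 other receptors by mean CPM, and Olig1 and Rasl11a in 2. Stbd1 had a median of 53.8 CPM over the 68. Cd55 had a median of 16.5 CPM, was under 20 CPM in 36 of the 68 and over 100 CPM in 13, up to 1149 CPM in Olfr1271. Kirrel had a median of 50.8 CPM, and 22 of the 68 receptors had under 20 CPM. By the same cuts Nrp1 was over 100 CPM in 13 of the 68 and under 20 CPM in 28, Pcdh7 in 16 and 34, and Kirrel3 in 22 and 21.

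**Figure D4:**
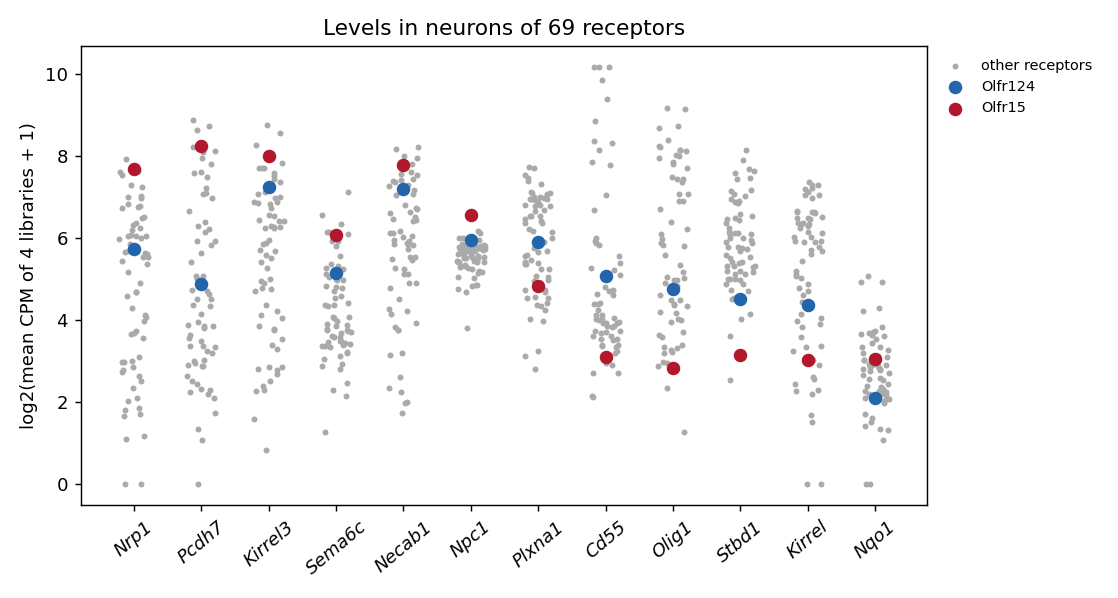
Levels as log2(mean CPM of 4 libraries + 1) of 12 genes, 1 grey point for each other receptor, with Olfr15 in red and Olfr124 in blue. Olfr15 lies at or near the top for Nrp1, Pcdh7, Kirrel3, Sema6c, Necab1 and Npc1 and near the bottom for Olig1 and Stbd1, while for Nqo1 nearly all of the 69 receptors are low.

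How many neurons carried these transcripts was compared after each barcode was thinned to 3000 UMIs, which left out 15 of the 122 members and 1391 of the 17769 other neurons. Nrp1 had a UMI in 42.1% of thinned members (95% exact interval 32.6% to 52.0%) and 11.3% (10.8% to 11.8%) of other neurons, and 69.7% and 22.7% before thinning. In barcodes with over 15 Cyp2g1 UMIs the thinned share was 5.66%. Kirrel3 was found in 58.9% (49.0% to 68.3%) and 21.7% (21.05% to 22.3%), against 7.13% in the Cyp2g1 barcodes, and 77.9% and 38.0% before thinning. For both genes the share in members stood well above those in other neurons and in the Cyp2g1 barcodes, so that the rise in CPM came with more neurons holding a UMI. Pcdh7 was found in 51.4% (41.5% to 61.2%) and 16.1% (15.5% to 16.6%), and 77.0% and 29.3% before thinning, but the Cyp2g1 barcodes themselves had a share of 32.5%. What part of the shares in Cyp2g1 barcodes is stray RNA was not tested.

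For the lower genes, Olig1 had a UMI in 1.87% of thinned members (0.227% to 6.59%) and 23.7% of other neurons (23.0% to 24.3%), and Stbd1 in 1.87% and 19.0%, with 3.28% and 37.5% for Olig1 and 5.74% and 37.8% for Stbd1 before thinning. The thinned shares in the Cyp2g1 barcodes were 8.24% and 3.47%. The shares in members were below these. Whether the few UMIs in members were stray RNA was not tested.

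Of 8 tested genes linked to OSN activity, 5 fell and Kirrel3 rose, where 1.69% of all genes tested were lower and 0.949% higher. The list mixes genes that are high and genes that are low in active OSNs, so these counts give no single direction. S100a5 had 6296, 9105, 10951 and 6528 CPM in Olfr15 neurons and 11889, 11191, 17427 and 13252 CPM in the others, lower in each library with no overlap (log2 fold change -0.77, SE 0.09, edgeR adjusted p 7.01e-07). Its call was lost with equal weight of receptors, where the value was -0.24. Pcp4l1, a small neuronal protein, had 1389, 2344, 1912 and 1520 CPM against 2331, 2471, 2833 and 2625 CPM (log2 fold change -0.58, SE 0.09, edgeR adjusted p 0.000102). The highest Olfr15 value, in female 2, overlapped the lowest other value, and with equal weight of receptors the value turned to 0.10.

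H2bc21, a histone variant known to be high in OSNs with little activity, unlike S100a5 and Kirrel2, had 397, 331, 458 and 453 CPM against 811, 803, 791 and 775 CPM (log2 fold change -0.99, SE 0.09, edgeR adjusted p 1.77e-08) and passed in all 17 alternatives. Of the 68 other receptors 46 had a higher mean CPM of S100a5 than Olfr15, 40 of Pcp4l1 and 44 of Kirrel2, so that Olfr15 lay in the lower middle and not at the end. Calb2, a calcium-binding protein, varied between libraries with 374, 48.2, 239 and 524 CPM against 444 to 533 CPM (log2 fold change -0.74, SE 0.20, edgeR adjusted p 0.0342), and its call was lost in 7 of 17 alternatives, among them without female 2 and without male 1. The 4 libraries stood in the same order in Calb2 as in the share of members with over 2 Gap43 UMIs. With barcodes of at most 2 Gap43 UMIs alone, the change of Calb2 was -3.44, and with equal weight of receptors it turned to 0.30.

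Of the 9 tested calcium-binding proteins and peptides 6 fell and Necab1 rose, where 1.69% of all genes tested were lower. The neuropeptide precursor Cartpt had 302, 175, 188 and 75.5 CPM against 513, 614, 605 and 728 CPM (log2 fold change -1.75, SE 0.18, edgeR adjusted p 4.55e-08), and with equal weight of receptors its value turned to 0.76. Vsnl1, a neuronal calcium sensor, had 45.5 ± 12.4 CPM (SD, n = 4) against 99.9 ± 14.3 CPM (log2 fold change -1.19, SE 0.21, edgeR adjusted p 0.000595), a call lost without the library block. Nppc, the C-type natriuretic peptide, had 0 UMIs in all 4 Olfr15 sums and 13.4 ± 2.74 CPM (SD, n = 4) in the others, at least 3.85-fold lower against a floor of 3 counts over the group (edgeR adjusted p 0.0101), a call lost without male 1, without the library block and with equal weight of receptors.

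Of 15 tested genes of the unfolded protein response 5 fell and none rose, where 1.69% of all genes tested were lower. The list median was -0.14. Herpud1, an endoplasmic reticulum protein of that response, had 221, 181, 207 and 184 CPM in Olfr15 neurons and 403, 413, 352 and 364 CPM in the others (log2 fold change -0.97, SE 0.11, edgeR adjusted p 4.85e-07), and 66 of the 68 other receptors had more. Dnajb9, a chaperone partner, had 146 ± 11.1 CPM (SD, n = 4) against 225 ± 17.4 CPM (log2 fold change -0.67, SE 0.12, edgeR adjusted p 0.00112). The stress genes Ddit3 (-0.73), Trib3 (-1.57) and Ddit4 (-0.77) passed too, but Ddit3 lost its call in 4 of 17 alternatives, Trib3 in 8 of 16 and Ddit4 in 12 of 17. The chaperone gene Hsp90b1 had a log2 fold change of 0.21 and did not pass.

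Of 12 tested immediate early genes Egr1, Jun, Fos, Dusp1 and Fosb fell and none rose, where 1.69% of all genes tested were lower. Dusp1 (-0.44) lost its call in 4 of 17 alternatives and Fosb (-0.61) in 8. Egr1 had 307, 84.4, 168 and 142 CPM against 371, 397, 344 and 455 CPM, with no overlap (log2 fold change -1.16, SE 0.16, edgeR adjusted p 2.13e-05). Fos had 771, 464, 274 and 392 CPM against 764, 791, 679 and 825 CPM (log2 fold change -0.77, SE 0.13, edgeR adjusted p 0.000331). In female 1 Fos was slightly above the other neurons, and 22.4% of all its Olfr15 UMIs came from 1 barcode. This was the female 1 barcode rich in markers of other cell types, which held 90 of the 171 Fos UMIs of that sum. The calls of Egr1, Fos and Jun were lost with equal weight of receptors, and those of Fos and Jun also without the library block.

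Olfactory transduction genes were mostly level or higher: of 17 tested 5 rose and 11 did not pass. Over all genes tested 0.949% were higher, and the list median was 0.24 on the log2 scale. Stoml3, a ciliary stomatin of OSNs, had 12907, 18265, 15605 and 13316 CPM in Olfr15 neurons and 9414 to 10114 CPM in the others (log2 fold change 0.56, SE 0.08, edgeR adjusted p 2.32e-05). The cyclic nucleotide phosphodiesterases Pde4a, in the cell body and axon, and Pde1c, in cilia, rose by 0.52 (SE 0.08, edgeR adjusted p 0.000165) and 0.44 (SE 0.08, edgeR adjusted p 0.00146). Pde7b, a phosphodiesterase for cyclic AMP, rose by 0.70 (SE 0.10, edgeR adjusted p 2.63e-05). Stoml3 and these phosphodiesterases passed in all 17 alternatives. The phosphodiesterases were the 3 genes that passed among 9 tested second messenger enzymes, all of them higher.

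The chloride channel Ano2 (0.43) and the creatine kinase Ckb (0.28) passed near the threshold, and their calls were lost in 12 and 3 of 17 alternatives. Adcy3, the cyclase that makes cyclic AMP, and Cnga2, its channel, had 0.24 and 0.28 and did not pass. Of the receptor transport proteins Rtp1, which brings receptors to the membrane, had 559, 446, 462 and 453 CPM against 718, 714, 652 and 678 CPM (log2 fold change -0.56, SE 0.09, edgeR adjusted p 0.000129), and Rtp2, Reep1 and Reep6 did not pass.

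Of 17 tested transcription factors Olig1 and Tshz1, a zinc finger factor, fell and Ldb1, the cofactor of Lhx2 at receptor enhancers, rose. Tshz1 had 33.8 ± 12.0 CPM (SD, n = 4) against 75.7 ± 3.84 CPM (log2 fold change -1.16, SE 0.24, edgeR adjusted p 0.00349), a call lost with equal weight of receptors. Ldb1 had 162, 163, 196 and 245 CPM against 132 ± 5.49 CPM (SD, n = 4) (log2 fold change 0.51, SE 0.13, edgeR adjusted p 0.0294), the highest level of the 69 receptors, with Olfr124 in second place, and its call was lost in 5 of 17 alternatives. Lhx2 and the Ebf factors did not pass. None of 12 ion channels and none of 13 genes of glutamate release passed, with medians of 0.12 and -0.08. Over all genes tested the share that passed was 2.64%.

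Of 10 genes that an earlier look at these libraries had picked for their differences between receptors 5 rose and 3 fell. They were chosen on these samples and are no separate support. The shares over all genes tested were 0.949% higher and 1.69% lower. Mslnl, a mesothelin-like surface protein, had 1042, 1223, 1154 and 1180 CPM against 584 to 667 CPM (log2 fold change 0.86, SE 0.08, edgeR adjusted p 6.56e-09). Adam28, a membrane metalloprotease, had 246 ± 37.8 CPM (SD, n = 4) against 129 ± 9.31 CPM (log2 fold change 0.89, SE 0.12, edgeR adjusted p 1.58e-05).

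**Figure D5:**
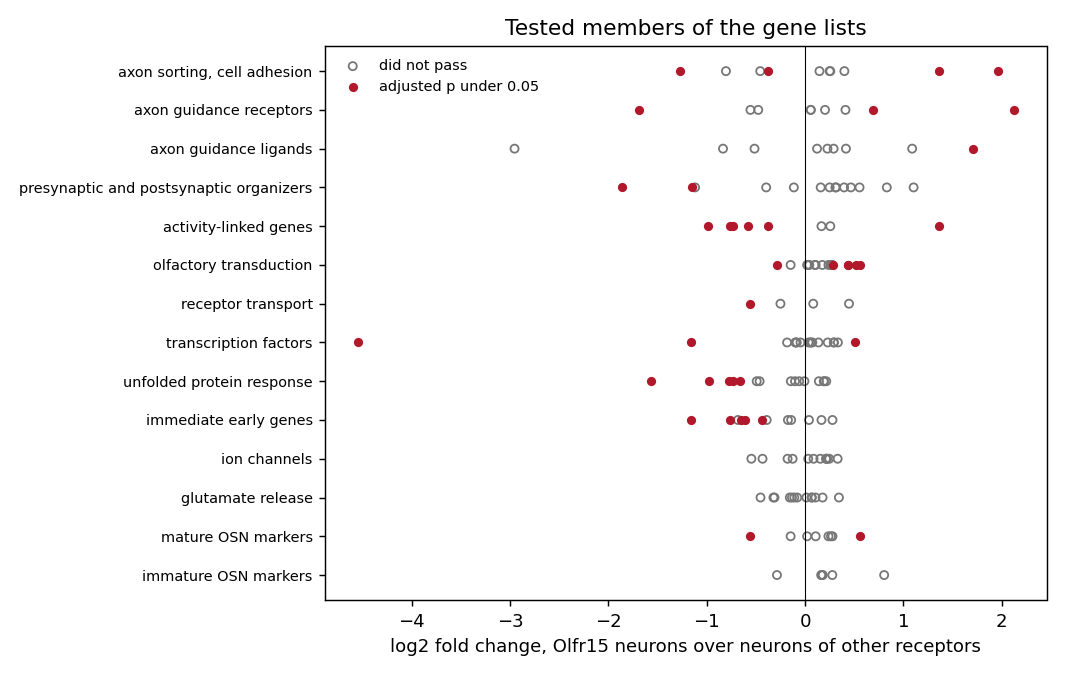
Log2 fold change of Olfr15 neurons over neurons of other receptors for the tested members of 14 gene lists, 1 point per gene, red where the adjusted p was under 0.05. Guidance and adhesion genes spread to both sides, activity-linked, unfolded protein response and immediate early genes that passed lie to the left apart from Kirrel3, and 5 transduction genes that passed lie to the right.

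Markers of other cell types moved with the comparison as follows, where 1.69% of all genes tested were lower. Of 6 supporting cell markers none passed, with 274 to 1506 CPM summed in Olfr15 neurons and 520 to 722 CPM in the others, the highest in female 1. Both tested globin genes were lower: Hbb-bs had 22.6, 18.1, 23.5 and 14.2 CPM against 174, 218, 115 and 139 CPM (log2 fold change -3.01, SE 0.23, edgeR adjusted p 1.82e-10), and Hbb-bt had 3 UMIs in Olfr15 neurons. The summed red cell markers were 14.2 to 30.1 CPM against 142 to 244 CPM, with Hba-a1 and Hba-a2 at 0 in Olfr15 neurons. Summed immune markers were 0 to 78.3 CPM against 55.7 to 158 CPM, and 3 of the 6 were at 0. Of 3 tested immune markers Cd74 and Lyz2 were lower, Lyz2 with 3 UMIs. Basal markers summed to 0 to 62.6 CPM against 25.8 to 50.9 CPM, and of 3 tested Krt5, with 1 UMI, was lower. The 1 tested glial marker did not pass, and no microvillar marker was abundant enough to be tested. With barcodes over 20 such UMIs left out of both groups, Hbb-bs was at 0.59, Cd74 at 0.19, Lyz2 at 0.26, Krt5 at 0.06 and Hbb-bt at 0.50, none of which passed, and 263 genes passed in all.

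Of 9 tested genes other than receptors within 500 kb of Olfr15 1 passed, where 2.64% of all genes tested did. Cluap1, a protein of ciliary transport 64.1 kb away, had 27.1 ± 7.54 CPM (SD, n = 4) in Olfr15 neurons and 57.5 ± 2.21 CPM in the others, lower in 4 of 4 libraries and lowest of the 69 receptors (log2 fold change -1.14, SE 0.26, edgeR adjusted p 0.0106). Its call was lost with DESeq2, at 5000 or more UMIs, without male 1 and without male 2. Zfp174, which begins 2.52 kb beyond Olfr15 on the same strand, had 5 UMIs where 3.51 were expected (log2 fold change 0.46, SE 0.85) and did not pass. The other 7 were Zfp263 (-0.36), Zfp597 (-0.39), Naa60 (-0.18), 1700037C18Rik (0.01), Slx4 (-0.01), Trap1 (-0.23) and Crebbp (-0.18).

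The receptors whose neurons were most like Olfr15 neurons were found by Pearson's r of log2 CPM less the mean of the 69 receptors, over the tested genes. They were Olfr309 (r 0.23), Olfr533 (0.23), Olfr727 (0.21), Olfr1347 (0.17) and Olfr124 (0.15), and the other 68 receptors ran from -0.26 to 0.23 with a median of -0.02. These are descriptions across genes, which are not independent, and the receptors share libraries. Olfr309 also had the highest Nrp1, Pcdh7 and Sema6c of the 68 receptors. In Olfr124 neurons Nrp1 was 51.8 CPM, Pcdh7 28.2 CPM and Kirrel3 151 CPM, against 202, 302 and 253 CPM in Olfr15 neurons.

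Within Olfr15 neurons the sexes were compared over 2 sums against 2. The Y-linked gene Eif2s3y had no UMI in either female sum, against 23 UMIs in male 1 and 24 in male 2, in keeping with the labels. By edgeR's quasi-likelihood test 28 of 10007 genes (0.28%) passed, 5 higher and 23 lower in males. The genes of lowest p were Chil4, Sprr1a, Atf3, Eif2s3y, Krt18, Hspb1, Nr4a1, Gstm1, Scgb1c1 and Ugt2a1. Chil4, a chitinase-like protein of epithelia, had 696, 0, 0 and 1 UMIs, all 696 in the female 1 barcode described above, which also carries the call of Chil4 in the main comparison (log2 fold change 7.09). For 15 of the 28 genes that 1 barcode held most of the Olfr15 UMIs, and without it and the other barcode rich in markers 11 genes passed, 9 of them among the 28. The count was 43 without female 2 and 0 without male 1 or without male 2 (288 and 236 at an unadjusted p under 0.05). Without female 1 it was 19, 15 of them higher in males.

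The difference between the sexes in the Olfr15 effect itself was tested as an interaction. It passed for 11 of 10007 genes (0.11%) by edgeR, 1 higher and 10 lower in males, with 448 at an unadjusted p under 0.05. The female 1 barcode held most of the Olfr15 UMIs of 6 of the 11. With neurons over 20 UMIs of other cell types' markers left out of both groups, 0 genes passed in edgeR and 440 had an unadjusted p under 0.05. The count was 17 without female 1, 30 without female 2 and 27 without male 1.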

How the data were processed

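Droplet single-cell RNA libraries, prepared from the 5' end of transcripts with unique molecular identifiers, were analysed from the raw UMI counts that the authors deposited. The counts were made with Cell Ranger, version 6.0.2 per the file headers and 5.0.1 per the submitters' processing notes, on mm10. Per the labels, the 4 libraries are 2 females and 2 males. The members and all gene lists were chosen with earlier results of these data known. Receptor genes of all families were left out of the sums, and likely doublets were kept in the main comparison.

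Counts were summed per library and class, 122 Olfr15 neurons against 17769 others, and tested with edgeR 4.0.16 (R 4.3.3) by quasi-likelihood with TMM scaling and the library as a block. Genes needed an abundance of at least 1 count at the mean depth of the Olfr15 sums, and p-values were adjusted by Benjamini-Hochberg over 10007 genes. Shares carry exact Clopper-Pearson intervals at 95%, which cover counting error only. Sex was tested in the Olfr15 sums alone, and as an interaction over all 8 sums. Named genes were the 15 largest changes each way among those that passed, with the same direction in 4 libraries and at least 20 UMIs observed or expected. DESeq2 1.42.0 was an alternative, as were other scalings, filters, comparators and barcode limits. Doublets were scored against simulated ones, 2 per barcode with 50 neighbours, at 0.8% per 1000 barcodes. The scripts were tested on simulated data. Gene positions are those of GENCODE M21, which held 22285 of 22399 gene IDs. The result of 1 transduction gene is not reported here.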

Additional observations from a re-analysis of the deposited data

Results flagged for a closer look

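Each of the following stood apart by a fixed criterion. Among 34 sets of 4 library values, 4 had 1 library far from the others. The criterion was a ratio of gap to range above Dixon's critical value. Chance gives that in about 1 of 20 sets of normally distributed values. Median Omp in Olfr15 neurons had a ratio of 0.895, with 62.5 UMIs in female 2 and 53 to 54 in the other libraries. Pcdh11x, Papss2 and Cd74 had a ratio of 1 each, since all their UMIs in Olfr15 neurons came from 1 library, 1 UMI for Pcdh11x (male 2), 1 for Papss2 (female 2) and 5 for Cd74 (female 2).

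For 11 genes the Olfr15 difference itself differed between males and females by the interaction test of edgeR. In 6 of them a single barcode of female 1 held most UMIs: Krt18 (log2 interaction -2.77, 85 of the UMIs in that barcode), Atf3 (-3.94, 92 UMIs), Nr4a1 (-2.86, 92 UMIs), Hspb1 (-3.42, 78 UMIs), Ugt2a1 (-1.70, 79 UMIs) and Gstm1 (-1.55, 182 UMIs). In Scgb1c1 (-1.14) it held 191 UMIs, 43.7% of the total. Avp (-4.64) and Apoe (-5.31) came from another barcode each, with 90.9% and 92.1% of their Olfr15 UMIs. Tubb2b, a tubulin of immature neurons, was the 1 gene higher in males (1.67), with 38, 6, 28 and 105 UMIs in female 1, female 2, male 1 and male 2. Nap1l5 (-1.91) had 36, 20, 8 and 8 UMIs, with at most 8.33% from 1 barcode. With neurons over 20 UMIs of other cell types' markers left out of both groups, none of the 11 passed in edgeR. The edgeR adjusted p was then 0.0562 for Avp, 0.0637 for Tubb2b and 0.0831 for Nap1l5.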

How the results depend on the processing

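Of the 30 named genes 14 kept sign and call in every alternative, and 3 changed sign in at least 1. The count of 264 genes was 169 with DESeq2, 195 with no replicate block and 178 at 5000 or more UMIs. It was 128 to 278 when each library was left out in turn. The sex difference in Olfr15 numbers was 0.26 (log2) with the replicate block, and the count of genes differing by sex within Olfr15 neurons was 29 with it. That count of 28 was 0 with DESeq2 (33 genes at an unadjusted p under 0.05), 1 with at least 5 counts, 11 with at most 20 UMIs of other cell types' markers, and 0 to 43 with libraries left out. The interaction count of 11 was 0 with DESeq2 (136 unadjusted), 22 with no filter, 0 with at least 5 counts (280 unadjusted), 0 with at most 20 marker UMIs (440 unadjusted), and 13 to 30 with libraries left out. Where a library was left out of a sex comparison, the lone sum was assumed to vary like the others. With 68 receptors at equal weight and all others left out the sign changed for Nqo1 (0.285), Acsm4 (0.379), Pcp4l1 (0.104), Calb2 (0.302), Cartpt (0.756), Hbb-bs (0.294) and Hbb-bt (0.589). With at most 20 marker UMIs it changed for Cd74 (0.194), Krt5 (0.0574), Lyz2 (0.262), Hbb-bs (0.587) and Hbb-bt (0.5002), genes which that limit itself counts. The limit on markers and the fit with no scaling were chosen after seeing the data. With 165944 to 255692 UMIs per Olfr15 sum, genes under about 1 count per sum could not be tested.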
